A study of Mus musculus with 10 samples.

Results

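The 10 genes described here encode glucose transporters and enzymes of glycolysis. They were chosen by symbol, namely Slc2a1, Slc2a3, Hk2, Gpi1, Pfkl, Aldoa, Tpi1, Pgk1, Eno1 and Ldha, and each symbol matched 1 Ensembl ID among the 22713 IDs of both mRNA tables. They were chosen with earlier results of these data known, so shares of all genes are a background for their counts and no test. All 10 passed the filter on low values in both tables. The values are normalized read counts (CPM, reads scaled to a library of fixed size) in 8 mRNA-sequencing libraries of mouse embryonic stem (ES) cells. Pontin f/f; CreER ES cells, which carry floxed alleles of Pontin (the gene Ruvbl1) and a Cre recombinase that 4-hydroxy tamoxifen (OHT) switches on, gave 1 untreated WT library and 1 library each at 3 and 4 days of OHT (OHT 3D and OHT 4D). ZHBTc4 ES cells, in which tetracycline (Tc) shuts off Oct4 (Pou5f1), gave 1 library after 2 days of Tc (Tc 2D). Without Tc the same line gave 2 libraries 4 days after infection with pLKO control lentivirus and 2 with pLKO lentivirus carrying an shRNA against the lincRNA linc1253. WT cells, treated with no OHT, carry the floxed alleles and CreER as well. The Tc 2D library has no untreated partner from its own line in its own table, so its first control is the WT library, and line and Oct4 depletion cannot be told apart in that comparison. The control shRNA libraries of its line differ from it by lentivirus as well as by Tc, and the study sequenced them on another instrument. No library had OHT or Tc without depletion, so drug and depletion cannot be told apart either. Chromatin immunoprecipitation (ChIP) with antibodies against Pontin and, as control, GFP gave 1 library each from ZHBTc4 ES cells. The labels do not say whether the replicates are separate cultures, so p-values measure only the spread between these libraries.

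Glycolysis splits glucose into pyruvate and yields ATP without oxygen, and lactate dehydrogenase turns pyruvate into lactate while it restores the NAD that the pathway consumes. Glucose enters the cell through the facilitative transporters of the Slc2a family and is trapped there as glucose 6-phosphate by a hexokinase. Pluripotent stem cells are known for a high rate of glycolysis, and many of these genes are textbook targets of the hypoxia-inducible factors (HIF) and of Myc.

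Ruvbl1 read 198 CPM in the WT library, 33.3 after 3 days of OHT, 50.9 after 4 days and 85.0 in Tc-treated cells, against 148 to 188 in the 4 ZHBTc4 shRNA libraries. Pou5f1 read 301 CPM in the WT library, 296 after 3 days of OHT, 347 after 4 days and 21.1 in Tc-treated cells, against 582 to 708 in the shRNA libraries. The level of linc1253 was not analysed here. Libraries held 17187595 to 18120429 reads on genes in the first table and 21245831 to 37951742 in the second. All 15 pluripotency markers listed for a check of the cell type were above 1 CPM in 7 libraries, and 14 were at Tc 2D. A list of 20 fibroblast genes, which ES cells grown on feeder cells may carry over, summed to 888 CPM in the WT library, 1299 after 3 days of OHT, 1329 after 4 days, 675 in Tc-treated cells and 1000 to 1155 in the shRNA libraries. Fn1, which encodes fibronectin, made up 794 CPM of this sum in the WT library, and the other 19 genes summed to 93.7 CPM there, 658 after 3 days of OHT, 773 after 4 days, 159 in Tc-treated cells and 256 to 349 in the shRNA libraries.

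Slc2a1 (ENSMUSG00000028645, chr4:118781316-118809935 of NCBIM37, plus strand) encodes GLUT1, the transporter that most growing cells use. It read 363 CPM in the WT library, 264 after 3 days of OHT, 384 after 4 days and 257 in Tc-treated cells, 412 and 339 in the control shRNA libraries, and 339 and 307 in the linc1253 knockdown libraries. Slc2a3 (ENSMUSG00000003153, chr6:122677827-122751658, minus strand) encodes GLUT3, a transporter with high affinity for glucose. Its levels were 1011 CPM in the WT library, 774 after 3 days of OHT, 1013 after 4 days, 1341 in Tc-treated cells, 1341 and 1133 in the controls, and 1205 and 1122 in the knockdown. Slc2a3 was the member whose Tc 2D level lay above WT, and it was within the range of the controls, which were normalized apart. With all 8 libraries on one median-ratio scale it read 1451 at Tc 2D against a mean of 1174 in the controls, a log2-fold-change of 0.31.

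Hk2 (ENSMUSG00000000628, chr6:82675019-82724448, minus strand) encodes hexokinase 2, which binds to mitochondria and starts the pathway. It read 329 CPM in the WT library, 276 after 3 days of OHT, 226 after 4 days, 89.9 in Tc-treated cells, 519 and 495 in the controls, and 421 and 426 in the knockdown. Gpi1 (ENSMUSG00000036427, chr7:34987141-35015308, minus strand) encodes the isomerase that makes fructose 6-phosphate. Its levels were 557 CPM in the WT library, 350 after 3 days of OHT, 448 after 4 days, 283 in Tc-treated cells, 433 and 431 in the controls, and 378 and 382 in the knockdown. Pfkl (ENSMUSG00000020277, chr10:77449692-77472828, minus strand) encodes the liver-type subunit of phosphofructokinase, the enzyme of the committed step. Pfkl read 417 CPM in the WT library, 231 after 3 days of OHT, 305 after 4 days, 70.6 in Tc-treated cells, 351 and 309 in the controls, and 289 and 231 in the knockdown.

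Aldoa (ENSMUSG00000030695, chr7:133938748-133944265, minus strand) encodes aldolase A, which cleaves the sugar into triose phosphates. It read 1183 CPM in the WT library, 745 after 3 days of OHT, 959 after 4 days, 415 in Tc-treated cells, 1779 and 1496 in the controls, and 1411 and 1164 in the knockdown. Tpi1 (ENSMUSG00000023456, chr6:124760604-124764314, minus strand) encodes the isomerase that interconverts those triose phosphates. Its levels were 452 CPM in the WT library, 258 after 3 days of OHT, 364 after 4 days, 97.4 in Tc-treated cells, 589 and 512 in the controls, and 469 and 391 in the knockdown. Pgk1 (ENSMUSG00000062070, chrX:103382439-103399038, plus strand) encodes phosphoglycerate kinase, which makes ATP. Pgk1 read 1128 CPM in the WT library, 654 after 3 days of OHT, 838 after 4 days, 227 in Tc-treated cells, 1168 and 1224 in the controls, and 868 and 919 in the knockdown. Eno1 (ENSMUSG00000063524, chr4:149610830-149622988, plus strand) encodes the ubiquitous enolase. It read 1540 CPM in the WT library, 1116 after 3 days of OHT, 1343 after 4 days, 336 in Tc-treated cells, 2416 and 2341 in the controls, and 1973 and 1888 in the knockdown. Ldha (ENSMUSG00000063229, chr7:54096845-54110997, plus strand) encodes the lactate dehydrogenase subunit that favours lactate formation. Ldha read 921 CPM in the WT library, 589 after 3 days of OHT, 735 after 4 days, 188 in Tc-treated cells, 1976 and 1859 in the controls, and 1744 and 1492 in the knockdown. In all 8 enzymes the Tc 2D library had the lowest CPM of the 8 libraries, which the authors normalized in separate tables. The share of all genes with their lowest value at Tc 2D was not counted.

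**Figure D1:**
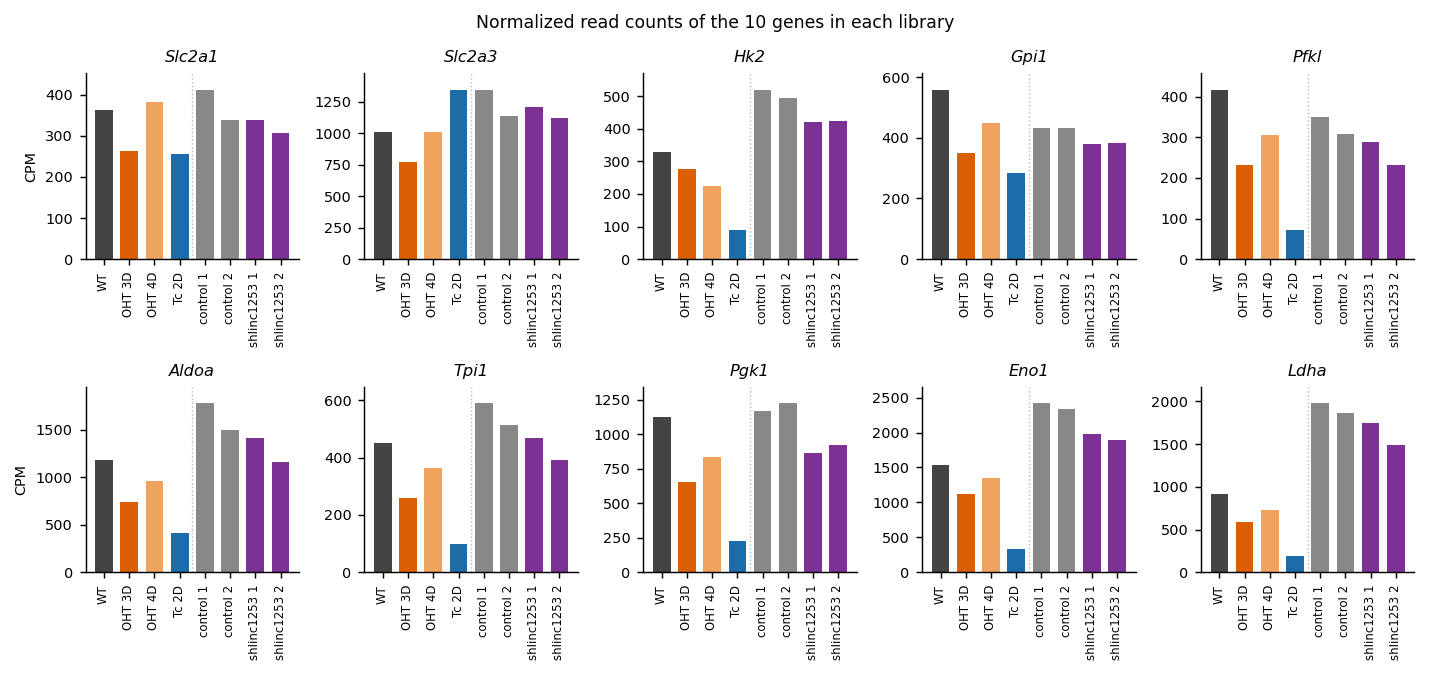
Normalized read counts (CPM, vertical axis from 0) of each of the 10 genes in the 8 libraries, 1 bar a library, with a dotted line between the tables that the authors normalized separately. For the 8 enzymes the Tc 2D bar is the lowest, while for Slc2a3 it stands at 1341 CPM, above WT at 1011 CPM.

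Per kilobase of exon, which allows genes to be compared, the control shRNA libraries had the highest levels for Ldha at 643 ± 27.6 CPM per kb (SD, n = 2), Aldoa at 595 ± 72.7, Pgk1 at 533 ± 17.5 and Eno1 at 442 ± 9.87. Ldha and Aldoa, and Aldoa and Pgk1, were apart by less than their summed SDs, so these neighbours in the order did not differ beyond their spread. The transporters lay in the middle, with Slc2a3 at 171 ± 20.3 and Slc2a1 at 131 ± 18.1, and Tpi1 at 249 ± 24.6 was above both. Gpi1 at 96.1 ± 0.222, Hk2 at 84.9 ± 2.89 and Pfkl at 75.1 ± 6.67 were the lowest. Slc2a3 and Slc2a1, and Hk2 and Pfkl, differed by little more than the sum of their SDs. The order depends on the length used, here the union of all annotated exon bases. Per kilobase of the longest annotated transcript, an alternative added after the data were seen, Eno1 came first at 1173 ± 26.2 CPM per kb, above Ldha at 1086 ± 46.6 and Aldoa at 1057 ± 129, and Gpi1 at 212 ± 0.490 was above Slc2a1 at 144 ± 19.8. There Aldoa was apart from Eno1 and from Ldha by less than the summed SDs, so it did not differ from them beyond the spread. Between the undepleted lines, the mean control level of Ldha was 2.08 times its WT level, those of Eno1 and Hk2 were 1.54 times WT, and that of Gpi1 was 0.776 times WT. These ratios run across separately normalized tables, in which the median of all 13449 genes was 0.12 higher (log2) in the controls.

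In Pontin-depleted ES cells, 6 of the 10 genes were called lower than WT at OHT 3D and none was called higher. A gene was called when its log2-fold-change of CPM + 1 exceeded 0.58 in size, the limit in the study's methods. With 1 library per group this is a rule of size and no test. Over all 13449 genes the rule called 5.88% lower and 6.01% higher. The genes called lower were Pfkl at -0.85, Tpi1 at -0.81, Pgk1 at -0.79, Gpi1 and Aldoa at -0.67 each, and Ldha at -0.64. The other members, Eno1 at -0.46, Slc2a1 at -0.46, Slc2a3 at -0.38 and Hk2 at -0.25, were all lower in CPM than WT without reaching the limit. The median of the 10 was -0.66, against -0.02 for all genes. Counting error alone spans at most ±0.0490 around these values. The 6 called genes encode enzymes that act between glucose 6-phosphate and 3-phosphoglycerate, and at the lactate step, whereas neither transporter nor the hexokinase was among them. Not every enzyme of that stretch was called, since Gapdh, which acts within it and is not a member, was at -0.22. Pkm, at a later step, was at -0.28. Of 16 further glycolysis genes tested, 4 were called lower and 0 higher. Fewer cells of a type and less RNA per cell cannot be told apart in bulk RNA. Of 18 fibroblast genes tested, 17 were called higher at OHT 3D with a median of 2.65, whereas 1 of 15 pluripotency genes was called lower and none higher. Of 13 genes each, 6 trophectoderm genes were called higher and 2 lower, and 6 primitive endoderm genes were called higher and none lower. The part of these lists in the result was not tested. At a limit of 1 on the log2 scale none of the 10 genes was called, where 0.93% of all genes were lower and 1.90% higher.

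The promoters of the 3 genes that were lowest against WT at OHT 3D, Pfkl, Tpi1 and Pgk1, are shown next to that of Slc2a1, which had the highest Pontin ChIP ratio of the 10 in the main promoter window described further on, with a counting interval that overlaps that of Eno1. Each run holds the 250 bases before the RefSeq gene start on GRCm38.p6, 5′ to 3′ on the gene's strand, at chr10:78009808-78010057 (minus) for Pfkl, chr6:124814159-124814408 (minus) for Tpi1, chrX:106186850-106187099 (plus) for Pgk1 and chr4:119108495-119108744 (plus) for Slc2a1. That build differs from NCBIM37, on which the reads were counted. Capitals mark ACGTG or GCGTG, the letters at the core of hypoxia response elements, on either strand.
Pfkl: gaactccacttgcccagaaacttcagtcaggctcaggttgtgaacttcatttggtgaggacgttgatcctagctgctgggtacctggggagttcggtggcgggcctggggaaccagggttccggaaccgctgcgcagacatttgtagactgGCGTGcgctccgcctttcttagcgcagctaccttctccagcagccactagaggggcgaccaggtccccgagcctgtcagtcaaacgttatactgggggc
Tpi1: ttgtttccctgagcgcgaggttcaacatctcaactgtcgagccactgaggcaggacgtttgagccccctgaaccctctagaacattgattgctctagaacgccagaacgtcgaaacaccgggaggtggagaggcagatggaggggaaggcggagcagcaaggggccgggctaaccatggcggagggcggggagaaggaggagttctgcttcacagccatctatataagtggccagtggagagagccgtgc
Pgk1: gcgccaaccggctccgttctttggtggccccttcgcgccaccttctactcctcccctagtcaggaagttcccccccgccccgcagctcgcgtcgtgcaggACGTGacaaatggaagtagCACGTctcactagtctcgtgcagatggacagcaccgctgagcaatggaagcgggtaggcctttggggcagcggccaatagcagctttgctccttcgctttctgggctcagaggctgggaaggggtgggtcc
Slc2a1: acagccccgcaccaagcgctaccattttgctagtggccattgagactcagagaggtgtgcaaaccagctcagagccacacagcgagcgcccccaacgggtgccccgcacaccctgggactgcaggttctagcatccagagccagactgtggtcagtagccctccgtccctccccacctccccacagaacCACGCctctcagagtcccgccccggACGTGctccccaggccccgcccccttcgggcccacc
The search covered 300 bases, 250 before and 50 after the start, and RefSeq promoters were matched for 9 of the 10 genes. On either strand, ACGTG or GCGTG stood in a promoter of 7 of those 9 genes, against 46.7% of all 26994 genes with such a promoter. That background was not matched for base composition or for promoters per gene. The 9 genes had 14 promoters, and the 26994 genes had 32817. Pgk1 and Slc2a1 had 2 matches each, Pfkl had 1, and Tpi1 had none in this window. Ldha had 7 matches in the first of its 2 promoters, which lay at 5 places because CACGTG reads the same on both strands and counts once on each. Counted as places that do not overlap, 6.55% of all 32817 promoters held 3 or more. The Myc E-box CACGTG, which contains ACGTG and so counts under both, was found in Ldha and in no other of the 9 genes, against 8.09% of all genes. These matches describe letters in a window and are not shown to be bound sites.

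At OHT 4D, none of the 10 genes was called in either direction, where the rule called 8.89% of all genes lower and 6.48% higher. Their median log2-fold-change against WT was -0.31, against 0.00 for all genes. Hk2 was farthest below WT at -0.54, followed by Pfkl at -0.45 and Pgk1 at -0.43, and Slc2a1 at 0.08 and Slc2a3 at 0.00 were at the WT level within 0.1. From OHT 3D to OHT 4D the CPM of 9 of the 10 genes was higher, the exception being Hk2 at -0.29, and 53.2% of all genes were higher. The differences between the time points were 0.54 for Slc2a1 and 0.50 for Tpi1 at the upper end, and no member passed 0.58. Summed over the 10 genes, CPM at OHT 3D was 66.5% of the WT sum, and at OHT 4D it was 83.7%. Ruvbl1 was lowest at OHT 3D, as given above. At OHT 4D 17 of 18 fibroblast genes were called higher, with a median of 3.11, as were 9 of 13 trophectoderm genes (1 lower, median 1.16) and 11 of 13 primitive endoderm genes (median 1.00). Their part in the values of the 10 genes was not tested. Both time points share the WT library, and a deviation of that 1 library would appear in both.

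In Oct4-depleted ES cells, 8 of the 10 genes, the enzymes, were called lower than WT, where the rule called 25.8% of all genes lower and 23.9% higher. The largest differences were Pfkl at -2.54, Pgk1 at -2.31, Ldha at -2.29, Tpi1 at -2.20 and Eno1 at -2.19, followed by Hk2 at -1.86, Aldoa at -1.51 and Gpi1 at -0.97. The transporters were not called, with Slc2a1 at -0.50 and Slc2a3 at 0.41. The median of the 10 was -2.03, against -0.06 for all genes, and the summed CPM was 41.8% of WT. Against the control shRNA libraries of the same ZHBTc4 line, which were sequenced and normalized apart, the same 8 genes were called lower, with backgrounds of 28.5% lower and 18.5% higher. There Ldha stood at -3.34, Eno1 at -2.82, Tpi1 and Hk2 at -2.48 each, Pgk1 at -2.39, Pfkl at -2.21, Aldoa at -1.97 and Gpi1 at -0.61, with Slc2a1 at -0.54 and Slc2a3 at 0.12. All 8 enzymes read below both controls at Tc 2D, and the share of all genes that did so was not counted. With all 8 libraries on one median-ratio scale, Gpi1 was at -0.42 and lost its call, 7 genes were called lower, and 21.9% of all genes were lower and 24.4% higher.

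**Figure D2:**
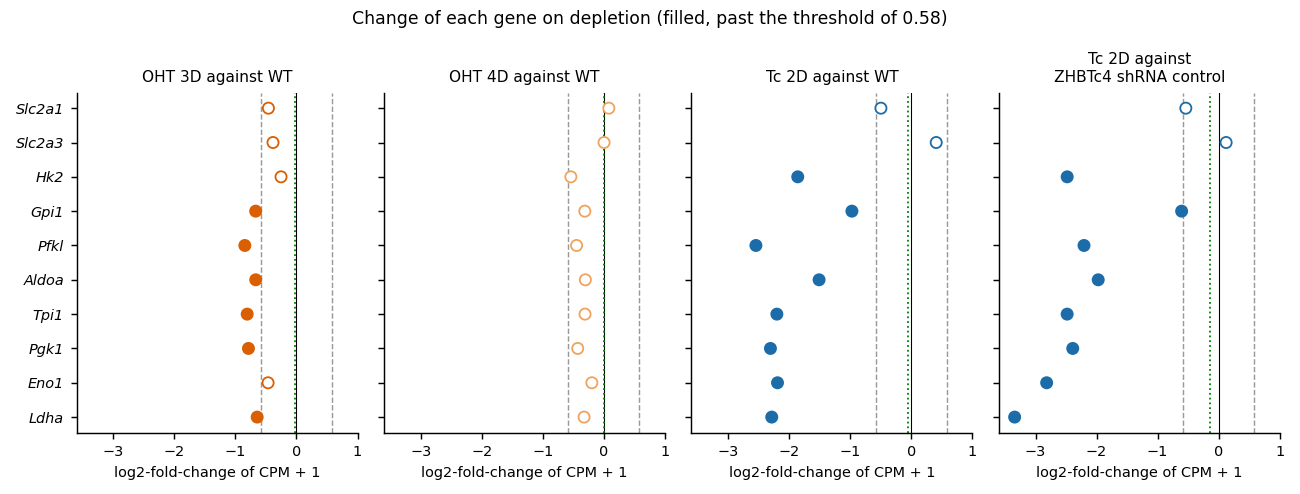
Log2-fold-change of CPM + 1 (horizontal axis) for each gene in 4 comparisons, with dashed lines at the limit of 0.58, a dotted line at the median of all genes and filled points for called genes. At OHT 3D 6 points are filled, at OHT 4D none, and at Tc 2D 8 in each panel, with the transporters open.

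Markers of other cell types moved with the Tc 2D library. Of 15 pluripotency genes 14 were called lower than WT, with a median of -3.08, and of 13 trophectoderm genes 10 were called higher and 1 lower, with a median of 2.41 and a summed CPM of 616 against 289 in WT. Of 13 primitive endoderm genes 7 were called higher and 1 lower, with a summed CPM of 879 against 472, and of 18 fibroblast genes 9 were called lower and 3 higher. Their part in the enzymes' values was not tested. The deposited CPM summed to less at Tc 2D than in the other 3 libraries of its table. Scaling by library size alone moved the median of all genes at Tc 2D to 0.24, with all 8 enzymes still called lower and Slc2a3 called higher at 0.73. That scaling called 16.4% of all genes lower and 35.4% higher, and it was the one setting that called Slc2a3.

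Isozymes that catalyse the same steps were read as well, and they are named here after their values were seen. A share within a library does not depend on how libraries are scaled, but it does depend on the exon lengths used. Ldhb, the subunit that favours pyruvate formation, read 410 CPM in the WT library, 131 after 3 days of OHT, 233 after 4 days and 569 in Tc-treated cells, and 242 to 272 in the controls. Per kilobase of exon, Ldha made up 54.2% of the lactate dehydrogenase signal in WT and 14.8% at Tc 2D, with 70.3% and 62.5% after 3 and 4 days of OHT, and 78.2% to 80.2% in the shRNA libraries. Hk1, the hexokinase of most adult tissues, read 112 CPM in the WT library, 75.2 after 3 days of OHT, 88.8 after 4 days and 185 in Tc-treated cells, and the share of Hk2 in the sum of both went from 80.8% in WT to 41.0% at Tc 2D, with 85.2% to 87.6% in the shRNA libraries. Pfkl made up 63.7% of the signal of the 3 phosphofructokinase genes in WT, whereas at Tc 2D Pfkm held the largest share at 41.6%. The order at Tc 2D rests on the lengths, since in CPM Pfkm was lowest there at 53.6, below Pfkl at 70.6 and Pfkp at 80.6. Aldoa remained at 98.3% or more of the sum of Aldoa and Aldoc in every library.

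**Figure D3:**
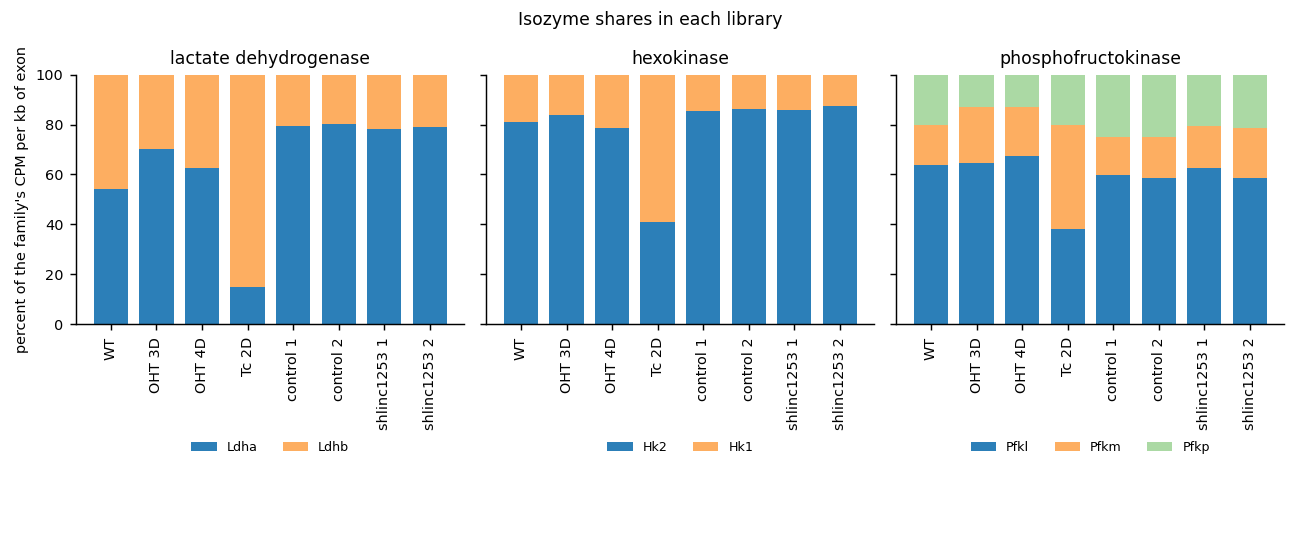
Share of each isozyme (percent of the family's CPM per kb of exon, vertical axis) in the 8 libraries for lactate dehydrogenase, hexokinase and phosphofructokinase. Ldha is at 14.8% of its family and Hk2 at 41.0% at Tc 2D, while the 4 shRNA libraries lie close together.

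After linc1253 knockdown, the CPM of all 10 genes was lower than control on average, and no gene of the 10 passed the adjusted test. The knockdown asks which genes respond to a lincRNA that the study places under the control of Pontin and Oct4. Limma called none of all 13407 genes at an adjusted p of 0.05 (0.0%). At an unadjusted p of 0.05 limma gave 503 genes lower and 496 higher, the edgeR quasi-likelihood test called 0 genes after adjustment and DESeq2 called 50 (28 lower and 22 higher), none of them a member. With all 4 libraries Pgk1 went furthest, with a log2-fold-change of -0.42 ± 0.09 (SE, limma, adjusted p = 0.522). Tpi1 at -0.36 ± 0.12 (limma adjusted p = 0.631), Aldoa and Pfkl at -0.35 each and Eno1 at -0.30 ± 0.10 (limma adjusted p = 0.605) came next, and Slc2a3 was nearest to 0 at -0.08, with 0.04 without control 1, where 9 of the 10 were lower, and -0.21 without control 2. At an unadjusted limma p of 0.05, 6 of the 10 were lower (Pgk1, Eno1, Hk2, Tpi1, Pfkl and Aldoa), where 3.75% of all genes were. In 8 of the 10 genes both knockdown libraries lay below both controls, as in 19.2% of all genes, and in Slc2a1 and Slc2a3 the groups overlapped. The median of the 10 was -0.28, against 0.00 for all genes. The controls themselves differed by a median of 0.13 in size over the 10 genes, with 9 of the 10 lower in control 2, where 51.7% of all genes were lower and the median size was 0.16. The 10 genes are not separate observations of the knockdown, since they come from the same 4 libraries. The unadjusted count was 2 without control 1, 3 without knockdown replicate 1 and 1 without knockdown replicate 2, and it was 8 without control 2, where 3.04%, 2.70%, 2.20% and 4.81% of all genes tested were lower in these fits. Without knockdown replicate 2 the difference was -0.19 for Pfkl, -0.21 for Aldoa, -0.23 for Tpi1 and -0.14 for Ldha. Without control 1 it was -0.22 for Aldoa and -0.07 for Slc2a1, and without control 2 it was -0.35 for Slc2a1. The order was not stable, since without control 2 Aldoa at -0.47, Tpi1 at -0.46 and Pfkl at -0.44 were below Pgk1 at -0.39. Without knockdown replicate 1, Pfkl at -0.51 and Aldoa and Tpi1 at -0.49 each were below Pgk1 at -0.38. Of the 20 fibroblast genes 13 were highest of the 4 shRNA libraries in knockdown replicate 2 and 3 were lowest, as were 12 and 0 of 14 primitive endoderm genes, which summed to 683 CPM there against 488 to 559 in the other 3. Among fibroblast genes named after their values were seen, Acta2 read 17.7 CPM there and 3.31 in control 2. In control 1 and knockdown replicate 1 Acta2 read 0.277 and 0.180 CPM. Thy1 was lowest in knockdown replicate 2, at 26.9 CPM. None of 18 fibroblast genes tested was called at an unadjusted limma p of 0.05, and their median was 0.49. Of 11 trophectoderm genes tested, 3 were lower and 0 higher by the same rule, with a median of -0.13. The part of these lists in the result was not tested.

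**Figure D4:**
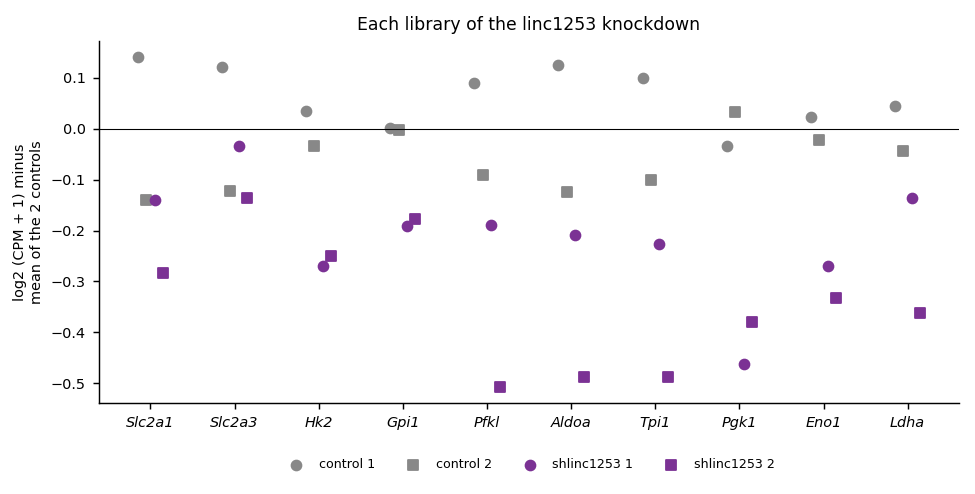
Each library's log2 (CPM + 1) minus the mean of the 2 controls (vertical axis) for the 10 genes, with circles for replicate 1 and squares for replicate 2, controls in grey and knockdown in purple. Purple points lie below both grey points in 8 genes, and those of Slc2a1 and Slc2a3 overlap with the controls.

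The Pontin ChIP was read from 2.5 kb upstream to 500 bases downstream of each start. Each start was the outermost annotated 5′ end of the gene on NCBIM37, which for Slc2a3 is chr6:122751658. Other starts were not read, although RefSeq gives 3 for Aldoa and Eno1 and 2 for Ldha. Whether these cells use the start that was read was not tested. The log2 ratio of Pontin over GFP reads, scaled by library size, was 0.95 at Slc2a1 (124 and 27 reads) and 0.81 at Eno1 (100 and 24 reads). These were the 2 of the 10 above the median of 21193 promoters, which was 0.34. Ldha at 0.28, Hk2 at 0.27, Gpi1 at 0.22 and Pfkl at 0.11 were lower, and Pgk1 at -0.03, Slc2a3 at -0.16, Aldoa at -0.22 and Tpi1 at -0.26 were below 0. Slc2a1 stood at the 84.0 percentile of all promoters and Tpi1 at the 17.4 percentile. The 95% counting interval of Slc2a1, 0.35 to 1.55, lay just above the median of all promoters. The interval of Tpi1, -0.80 to 0.28, ended below that median, as that of Slc2a3 did by less than 0.01, and the intervals of the other 7 genes included it. Among 513 genes with at least the lowest member's mean control level of 330 CPM, the median was 0.48, so 8 members were below it. In the 500 bases just upstream of the start, the 10 genes together had a ratio of 0.38, the 513 genes 0.93 and all promoters 0.59. In the 500 bases just downstream these ratios were 0.49, 0.91 and 0.49. For the 10 genes these 2 bins held 48 and 59 GFP reads, and their other bins of 500 bases ranged from -0.39 to 1.08. The 2 ratios of the 10 genes lie within that scatter. With 1 library per antibody there is no test. The order depends on the window, since with 1 kb on either side of the start 4 of the 10 genes lay above a median of 0.51, namely Eno1 at 1.08, Pfkl at 1.06, Slc2a1 at 0.95 and Hk2 at 0.76. In that window Slc2a3 at 0.18 and Aldoa at 0.13 were above 0, and Ldha at -0.22 and Gpi1 at -0.33 were below it, so the side of 0 on which these genes lay was not stable. In the first window with 1 read kept per position and strand, the median of all promoters was 0.29, and the intervals of all 10 genes included it. Tpi1 was then at 0.04, Slc2a3 at -0.02 and Slc2a1 at 0.77 (0.17 to 1.38), and Aldoa was lowest at -0.33.

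**Figure D5:**
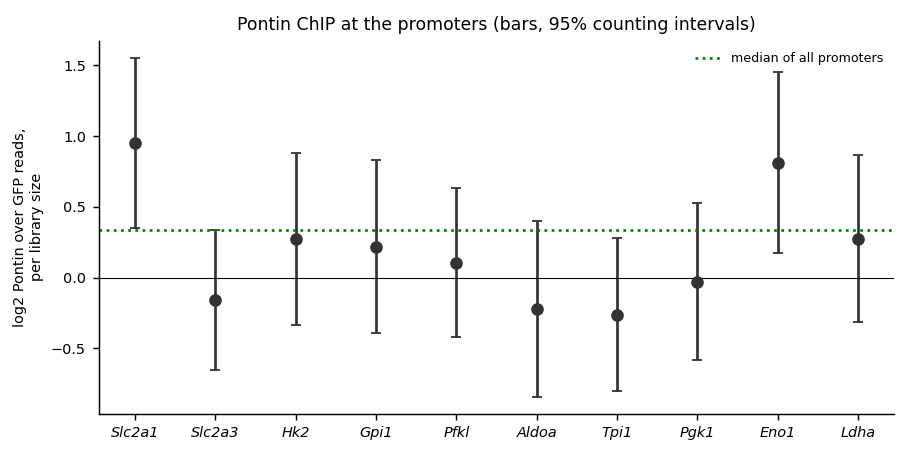
Log2 ratio of Pontin over GFP ChIP reads per library size (vertical axis) at the promoter of each gene, with 95% counting intervals as bars and the median of all promoters (0.34) dotted. Slc2a1 and Eno1 lie above the dotted line and Tpi1 lies lowest at -0.26.

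Other genes of the pathway were described from lists, and their counts stand against the 5.88% of all genes called lower and 6.01% higher at OHT 3D, 8.89% and 6.48% at OHT 4D, and 25.8% and 23.9% at Tc 2D. Of 16 further glycolysis genes tested, 4 were called lower after 3 days of OHT, 5 after 4 days and 9 after Tc, with 0, 0 and 2 called higher and medians of -0.40, -0.23 and -0.76. Pfkp, the platelet-type phosphofructokinase, read 284 CPM in the WT library, 97.7 after 3 days of OHT, 127 after 4 days, 80.6 in Tc-treated cells, 313 and 280 in the controls, and 204 and 180 in the knockdown. Aldoc, the brain-type aldolase, read 24.8 CPM in the WT library, 8.64 after 3 days of OHT, 9.29 after 4 days, 3.98 in Tc-treated cells, 13.6 and 14.4 in the controls, and 9.59 and 8.55 in the knockdown. Pfkp at -1.16 and Aldoc at -1.32 were also called lower at OHT 4D, when no member was. At Tc 2D against the ZHBTc4 controls, Pkm (-2.92), which encodes pyruvate kinase, and Gapdh (-2.54), which makes NADH, were among the genes with the largest differences, and against WT they stood at -1.75 and -0.80. Slc16a3, the lactate exporter MCT4, read 86.5 CPM in the WT library, 34.2 after 3 days of OHT, 55.9 after 4 days, 9.94 in Tc-treated cells and 133 and 94.7 in the controls.

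Neighbouring pathways were counted in the same way, against the same shares of all genes. Of 21 genes of pyruvate dehydrogenase and the citric acid cycle none was called at OHT 3D or OHT 4D, with medians of -0.18 and 0.03, and 10 were called lower at Tc 2D with a median of -0.47. Of 7 pentose phosphate genes none was called after 3 or 4 days of OHT, with medians of -0.02 and 0.08, and 3 were called lower and 1 higher in Tc-treated cells (median -0.41), or 4 and 1 against the shRNA controls (median -0.67), where 25.8% and 23.9%, or 28.5% and 18.5%, of all genes were called. Among 11 switches of glycolysis, which include Pdk1, the kinase that holds pyruvate out of the citric acid cycle, 3 were called lower and 1 higher at OHT 3D. Further lists gave 3 lower and 1 higher of 10 other transporters of glucose and lactate, 3 lower and 0 higher of 10 glycogen genes, and 2 lower and 2 higher of 6 gluconeogenesis genes at the same time point.

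Of 8 genes of the HIF pathway, 2 were called lower and 1 higher at OHT 3D. Hif1a, which encodes the oxygen-regulated subunit, read 139 CPM in the WT library, 140 after 3 days of OHT, 107 after 4 days and 90.2 in Tc-treated cells, with log2-fold-changes of 0.02 after 3 days of OHT and -0.61 after Tc. Epas1 (HIF2A) was called higher at OHT 3D at 0.99 and lower at Tc 2D at -3.26. Against the ZHBTc4 controls, Tc 2D had Hif1a at -0.46, which was not called, and Epas1 at -2.89. There 1 of the 8 HIF pathway genes was called lower (28.5% of all genes), in place of 4 against WT (25.8% of all genes). Egln3, a prolyl hydroxylase that is itself a HIF target, was at -2.13 at OHT 3D and -1.91 at OHT 4D. Of 14 other hypoxia targets tested, 6 were called lower at OHT 3D and 1 higher, with a median of -0.49. At Tc 2D 9 were called lower and 3 higher, the latter being Vegfa at 0.78, P4ha2 at 0.82 and Car9 at 1.64, named after their values were seen. Against the ZHBTc4 controls 8 were called lower and 2 higher, where 28.5% and 18.5% of all genes were, and P4ha2 at 0.40 lost its call. After linc1253 knockdown 6 of 14 were lower at an unadjusted limma p of 0.05, where 3.75% of all genes were. Bnip3, a mitophagy receptor, read 141 CPM in the WT library, 26.8 after 3 days of OHT, 34.8 after 4 days and 18.7 in Tc-treated cells, and Ndufa4l2 read 17.5, 1.54, 2.98 and 0.106 in the same order. Of 6 genes of the Myc group, 2 were called lower and 1 higher at OHT 3D. Myc was called higher at OHT 3D (1.47, from 19.8 to 56.6 CPM) and at OHT 4D (0.96), while Mycl1 was called lower at OHT 3D (-0.98), and Mycn was called lower at Tc 2D (-1.49).

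Over the 8 libraries, with log2 (CPM + 1) centred within each table, the 8 enzymes had a Pearson r of 0.924 (Hk2) to 0.998 (Tpi1) with the mean of the other 9 members, while Slc2a1 was at 0.763 and Slc2a3 at -0.521. The genes outside the 10 with the profile most like the members' mean were Vars (r = 0.998), Kdm1a (0.994), Pars2 (0.994), Dvl2 (0.993) and Mapk11 (0.993), of 10419 genes. These correlations are descriptions over 8 libraries that include the single Tc 2D library, and the points share tables and lines.

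Reads of 3 members can be shared with near-identical copies elsewhere in the genome. Segments of at least 75 bases at 98% identity or more cover 95.7% of the Pgk1 transcript, 85.6% of Eno1 and 65.1% of Gpi1, and 0% of the other 7. A copy of Eno1, Gm5506, has a row of its own and read 1.58 to 2.46 CPM in WT and the OHT libraries, 56.4 at Tc 2D and 312 to 550 in the shRNA libraries. Eno1 with Gm5506 added stood at -0.46 at OHT 3D, -1.97 at Tc 2D and -0.29 after knockdown, an addition made after the values were seen. That sum read 1542 CPM in WT and 2966 and 2688 in the control shRNA libraries. The ratio of control to WT given above for Eno1 leaves this copy out. Of the 3 copies of Pgk1, 2 are annotated as pseudogenes, and none has a row in the tables. The copy of Gpi1, Gm1840, read under 1 CPM in every library. The levels of Pgk1, Eno1 and Gpi1 are uncertain to the extent that shared reads were left out or placed on a copy.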

How the data were processed

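mRNA of 8 libraries and ChIP DNA of 2 were sequenced. The authors trimmed reads with cutadapt, aligned mRNA reads to NCBIM37 with TopHat (up to 10 locations), counted them per gene with HTSeq, applied TMM in edgeR and deposited CPM, with the 4 OHT, Tc and WT libraries in one table and the 4 shRNA libraries in another. Each ChIP read was deposited with its mapping quality score after Bowtie2 alignment, and reads were counted here per line. All CPM values came out as whole reads within 0.01 of a read, and 22337 of 22713 IDs had a symbol. Genes above 1 CPM in at least 1 library of a table entered. Differences are of log2 (CPM + 1), a scale that understates changes of low genes. Groups of 1 library had no test. For linc1253, limma 3.58.1 with trend was fitted over all genes with Benjamini-Hochberg adjustment. The recovered reads were also tested with DESeq2 1.42.0 and edgeR 4.0.16. Counting intervals (95%) come from the reads and cover counting error only. Alternatives were pseudocounts, filters, scalings, limits, the control of Tc 2D, a replicate block and leaving out libraries. All 10 members were named. Of the other lists, the 5 genes with the largest change per comparison at 5 CPM or more, the HIF and Myc genes, the targeted genes and the 5 genes most like the members could be named. Members and lists were chosen with earlier results of these data known. The scripts were tested on simulated data.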

Additional observations from a re-analysis of the deposited data

How the results depend on the processing

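Counts of called genes among the 10 stayed within 1.5 times under pseudocounts of 0.5 and 3, no filter or one at 5 CPM, and median-ratio size factors. At a limit of 1 the count lower at OHT 3D was 0. By library size alone the count higher at Tc 2D was 1 (Slc2a3). Each control shRNA library as the only control of Tc 2D, an alternative chosen after seeing the data, gave 9 and 8 genes lower (28.7% and 28.9% of all genes). With a replicate block, limma called 9 of the 10 lower after linc1253 knockdown (all genes 1027 lower and 933 higher). Same-numbered libraries deviated together (r = 0.673 over genes), but the labels do not say that a number marks a shared culture or day, and 2 pairs cannot settle it. Leaving out each library in turn, with the lone library assumed to vary like the others, called 0 of the 10 genes after knockdown in every case, and the log2-fold-change of Slc2a3 ranged from -0.2058 to 0.037, above 0 without control 1. Limma with no filter on low values had 3 of the 10 lower at an unadjusted p of 0.05, in place of 6, with 3.58% of all genes lower in place of 3.75%. Among the remaining values, of single genes and of all genes after knockdown, 60 moved beyond their error, 1 difference after knockdown changed sign (Slc2a3, above), 17 were stronger and 340 kept within these limits. The 17 are the 9 genes that passed adjustment with a replicate block, and counts of all genes called that were above 0. Many of the 340 could not move, since a filter or a limit leaves the log2-fold-change of a gene as it is. For single genes after knockdown the limits were the sign and the adjusted call, and the size of the difference was not judged. Those within their error include ChIP ratios near 0, and 11 of 30 ChIP ratios changed sign. Among these were Hk2, Gpi1, Pfkl and Ldha under scaling by the median ratio, which subtracts the same 0.34 from every promoter. In the Pontin ChIP, 1 kb either side of the start put 4 of the 10 above the median promoter in place of 2. The causes were not tested. Depth limits the ChIP, with 24 to 48 GFP reads per promoter.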
